A study of Homo sapiens with 16 samples.

Results

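The genes described here are 37 nucleolar ribosome biogenesis factors, taken by gene symbol from the count tables of the study: 37 of the 23597 genes listed for RNA-seq and 37 of the 19201 listed for Ribo-seq. They were followed by RNA-seq of total RNA and by Ribo-seq, which sequences the mRNA fragments protected by ribosomes (footprints). The cells were WI-38, human lung fibroblasts of 1 line that stop dividing after a limited number of passages. Each assay had 8 libraries in 4 groups of 2. The groups were senescent heat-shocked cells (passage 36), senescent control cells (passage 36), young heat-shocked cells (passage 24) and young control cells (passage 24). Heat shock lasted 2 h at 44 °C (the label prints the degree sign as a digit), and all cells, controls included, had first been starved of serum for 24 h and returned to serum for 24 h. The labels do not say whether replicates were separate cultures, so p-values measure only the spread between these samples, which may be technical.

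The nucleolus makes ribosomes: RNA polymerase I transcribes the precursor of the ribosomal RNAs, small nucleolar ribonucleoproteins (snoRNPs) modify and help to cut it, and sets of assembly factors fold it into the small and the large subunit. The genes of these factors are widely expressed, are known as targets of the growth regulator MYC, and in fibroblasts follow growth and serum. Heat stress is known to disturb the nucleolus, and changes of ribosome biogenesis are a known feature of senescent cells.

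Promoter windows of 32 of the 37 genes (250 bases before to 50 after an annotated start, several windows for some genes) were in a RefSeq table of build GRCh38.p14. NOP58, NOLC1, RRP12, BOP1 and RRP1B had no entry there. The E-box CACGTG, the letters that MYC and its partners recognise, was in a window of 16 of the 32 genes (50%), against 8.77% of the 27305 genes in the table. The letters CCGGAAG, read on both strands and known for ETS factors, were in 11 of the 32 (34.4%), against 12.2% of all genes in the table. GGGCGG on both strands (GC box) was in 22 (68.8%), against 48.3% of all genes. GAANNTTC, a core of the heat shock element, was in 2 (GNL2 and POLR1A; 6.25%), against 8.21% of all genes. The E-box reads the same on both strands, and none of these motifs contains another. A match describes the letters of the window only. The E-box had the widest gap to the share of all genes, so 30 bases around it are shown for 8 genes of different roles, with the E-box in capitals.
RRP9 (chr3:51941892-51941921, minus strand): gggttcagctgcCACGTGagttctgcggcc
FBL (chr19:39846356-39846385, minus strand): tgcgctcttttcCACGTGcgaaagccccgg
GAR1 (chr4:109815781-109815810, plus strand): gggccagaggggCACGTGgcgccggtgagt
NOP10 (chr15:34343130-34343159, minus strand): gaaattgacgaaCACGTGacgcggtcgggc
UTP20 (chr12:101280083-101280112, plus strand): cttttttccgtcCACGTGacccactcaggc
DDX21 (chr10:68956604-68956633, plus strand): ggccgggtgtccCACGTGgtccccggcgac
GNL3 (chr3:52686026-52686055, plus strand): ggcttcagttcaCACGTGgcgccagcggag
PES1 (chr22:30591880-30591909, minus strand): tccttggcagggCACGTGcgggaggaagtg
Of the 4 genes whose footprints rose under heat in senescent cells, POLR1A, NHP2 and WDR12 were in the table and had no E-box in their windows. Their 250 bases before the start are shown for comparison, with a heat shock element core (POLR1A) and GC boxes (NHP2, on the other strand as CCGCCC) in capitals; WDR12 held none of the motifs searched in the bases shown.
POLR1A (chr2:86105887-86106136, minus strand): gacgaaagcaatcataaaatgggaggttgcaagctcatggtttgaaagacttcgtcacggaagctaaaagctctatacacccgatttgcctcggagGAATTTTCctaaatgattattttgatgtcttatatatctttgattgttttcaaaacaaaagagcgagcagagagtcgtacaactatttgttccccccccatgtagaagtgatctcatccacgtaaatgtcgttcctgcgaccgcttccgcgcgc
NHP2 (chr5:178153886-178154135, minus strand): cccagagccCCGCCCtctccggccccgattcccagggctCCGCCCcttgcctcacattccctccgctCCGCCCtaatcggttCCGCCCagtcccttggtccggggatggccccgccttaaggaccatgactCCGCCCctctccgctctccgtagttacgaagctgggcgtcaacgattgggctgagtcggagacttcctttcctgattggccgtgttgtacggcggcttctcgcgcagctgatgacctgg
WDR12 (chr2:202911674-202911923, minus strand): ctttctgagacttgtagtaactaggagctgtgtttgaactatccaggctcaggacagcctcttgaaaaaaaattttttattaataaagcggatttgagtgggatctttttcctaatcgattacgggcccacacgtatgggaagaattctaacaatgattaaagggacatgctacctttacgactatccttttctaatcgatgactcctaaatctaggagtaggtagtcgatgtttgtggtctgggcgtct

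Total counts ranged over 26434514 to 37126871 in RNA-seq and 4581141 to 9104077 in Ribo-seq, of which the 37 genes took 0.289% to 0.490% and 0.403% to 0.613%. The 2 young control footprint libraries lay much closer to each other than any other pair, with a chi-square per degree of freedom of 1.73 over genes, against 17.2 to 38.7 in the other footprint pairs. Their difference still exceeded counting noise, but technical repeats can do so too, so this does not show that they were separate samples. They were kept as 2 samples, and the footprint counts are also given with them counted as 1. All 37 passed the filter on low counts in both assays. The smallest count of any of them in a library was 150 in RNA-seq (UTP15) and 61 in Ribo-seq (RRP1B). The cell type label matched the data: 10 of 10 fibroblast markers were above 10 TPM in each group in both assays, while the endothelial marker CDH5 and the T cell marker CD3E were at 0 in all libraries. CDH5 and CD3E were the only listed markers at 0 in all libraries of both assays. Above 10 TPM in RNA were 3 of 8 epithelial, 1 of 6 endothelial and 1 of 7 leukocyte markers. The 7 leukocyte markers summed to 104 to 178 TPM of RNA over the libraries. The summed RNA level of 8 epithelial markers was 203 to 225 TPM in senescent heat-shocked and 191 to 199.7 TPM in senescent control cells, against 146 to 148 TPM in young heat-shocked and 136 to 139 TPM in young control cells. The part of those markers in the comparisons of senescent with young cells was not tested. Heat shock raised HSPA1A RNA by 7.34 ± 0.34 on the log2 scale in senescent cells and by 8.06 ± 0.35 in young cells (SE; adjusted p = 7.56e-05 and 5.07e-05, edgeR's quasi-likelihood test). MYC did not pass that test: its RNA changed by 0.42 ± 0.23 with heat in senescent and 0.41 ± 0.23 in young cells, and its footprints by -0.27 ± 0.28 and 0.41 ± 0.28. The senescence marker CDKN1A differed by 0.95 ± 0.28 between senescent and young control cells in RNA (adjusted p = 0.432; 0.0148 with the replicate number as a block), and the proliferation gene MKI67 by -1.18 ± 0.73 (adjusted p = 0.815). MKI67 RNA stood at 10.6 and 40.9 CPM in senescent heat-shocked and 7.57 and 27.8 CPM in senescent control cells. Its footprints stood at 17.2 and 75.2 CPM against 7.50 and 21.5 CPM in those groups (1.64 ± 0.65, adjusted p = 0.141 by the same test). In young cells MKI67 footprints stood at 31.0 and 44.4 CPM with heat and 44.3 and 42.1 CPM in control. The part of this difference in the other changes was not tested.

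Levels per length, in the TPM unit that scales each library to the same total, differed widely among the genes. In young control cells NPM1, the acidic histone and ribosome chaperone nucleophosmin, led with 1334 ± 428 TPM of RNA and 1480.2 ± 1.56 TPM of footprints (SD, n = 2, as for all TPM here). Next stood NCL, the nucleolar RNA-binding protein nucleolin, with 553 ± 137 TPM of RNA and 388 ± 13.5 TPM of footprints, and the small H/ACA protein NOP10 with 331 ± 11.2 and 559.8 ± 9.52 TPM. NCL and NOP10 changed places between the assays. At the low end stood the RNA polymerase I subunit POLR1B with 9.95 ± 1.75 TPM of RNA and 7.71 ± 0.566 TPM of footprints, UTP20 with 13.0 ± 6.10 and 6.97 ± 0.269 TPM, and UTP15 with 7.11 ± 2.37 and 17.3 ± 0.658 TPM. In RNA the intervals of 1 SD of these genes overlapped between neighbours in the order. In footprints UTP20 was the lowest of the 37 genes, and UTP15, lowest in RNA, lay above both others. The ratio of mean footprint TPM to mean RNA TPM had a median of 1.17 over the genes in senescent heat-shocked cells, 0.898 in senescent control cells, 0.904 in young heat-shocked cells and 0.742 in young control cells. It exceeded 1 for 23, 14, 15 and 12 of the 37 genes in those groups. NIP7, a factor of late large subunit assembly, had the highest ratio in 3 groups, between 2.61 and 3.55, and UTP15 had it in senescent heat-shocked cells, with 4.22 against 4.16 for NIP7. Counts of NPM1 and of RRN3 are uncertain, since both genes have pseudogene copies that can share reads.

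**Figure D1:**
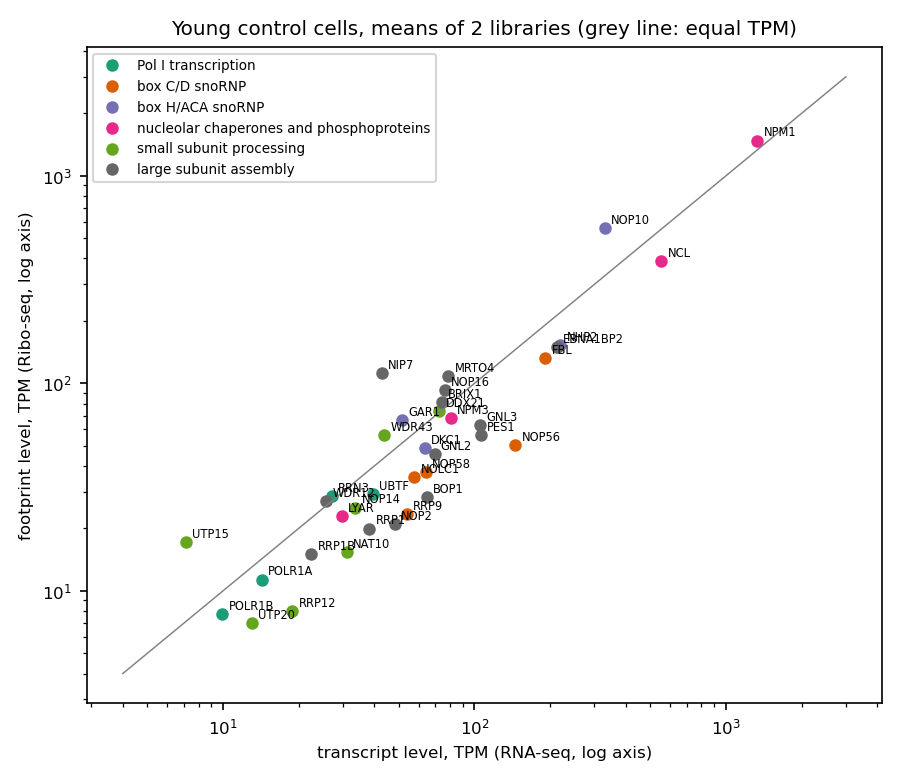
RNA level (x axis, TPM, log scale) against footprint level (y axis, TPM, log scale) of the 37 genes in young control cells, means of 2 libraries, coloured by role. NPM1 lies at the top right, POLR1B, UTP20 and UTP15 lie at the lower left, and NIP7 and UTP15 stand above the line of equal TPM.

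By edgeR's quasi-likelihood test with Benjamini-Hochberg adjustment, heat shock raised the footprints of 4 of the 37 genes in senescent cells: NOP58, POLR1A, WDR12 and NHP2, one each of the box C/D snoRNP, RNA polymerase I, large subunit assembly and the box H/ACA snoRNP. No gene of the group fell. The calls rested in part on counting the young control footprints as 2 samples, as described below. Over all 11288 genes tested, 3.12% rose and 5.24% fell in that comparison (8.35% in either direction). In young cells no footprint change of the group passed the test with edgeR or with DESeq2 (background 1.15% of genes called in either direction), nor did one with edgeR when the young control footprints were counted as 1 sample, while 5 genes, POLR1A, RRN3, NOP58, NHP2 and GAR1, were at an unadjusted p under 0.05 (background 16%). In senescent cells 7 were (background 28.7%): the 4 named, RRN3, UTP20 and RRP1B. In RNA no gene passed the test with heat in senescent cells (background 0.577%) or in young cells (background 1.14%), again with both tools, and 0 and 1 genes were at an unadjusted p under 0.05 (background 8.29% and 10.1%). Because RNA libraries of the same replicate number deviated together, a fit with that number as a block was also made: it called 1 fall in senescent cells (UTP15; background 6.28% of genes called) and none in young cells (background 8.77%). With DESeq2 these counts were 4 in senescent footprints and 0 elsewhere. Of all genes, DESeq2 called 1515 in senescent and 447 in young footprints, and 285 and 445 in senescent and young RNA. The backgrounds above are from edgeR, whose fit without the block called 943, 130, 76 and 150 genes in the same order.

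The medians of the group lay on opposite sides of 0 in the 2 assays. In footprints the median log2 change with heat was 0.19 in senescent cells (29 of 37 genes above 0) and 0.17 in young cells (27 of 37), beside 0.03 and -0.01 over all genes tested. In RNA it was -0.19 in senescent cells (10 of 37 above 0) and -0.07 in young cells (13 of 37), beside -0.01 and 0.01 over all genes. Scaling by library size alone moved the footprint median over all genes to -0.25 in senescent and -0.28 in young cells, and the group's to -0.08 and -0.11, so its sign depends on the scaling while it lay above the median of all genes under both. With 1 library left out it ran over 0.0036 to 0.44 in senescent and -0.10 to 0.34 in young footprints, and over -0.30 to 0.048 and -0.24 to 0.11 in RNA. All changes are therefore relative to the scaled bulk of the libraries, in which fewer cells of a type and less RNA per cell cannot be told apart. In senescent cells the footprint groups of 14 genes did not overlap with heat higher, and those of 2 with heat lower. The RNA groups of 3 did not overlap with heat higher and those of 12 with heat lower. Over all genes these shares were 26.8% and 27% in footprints and 14.7% and 16.4% in RNA.

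**Figure D2:**
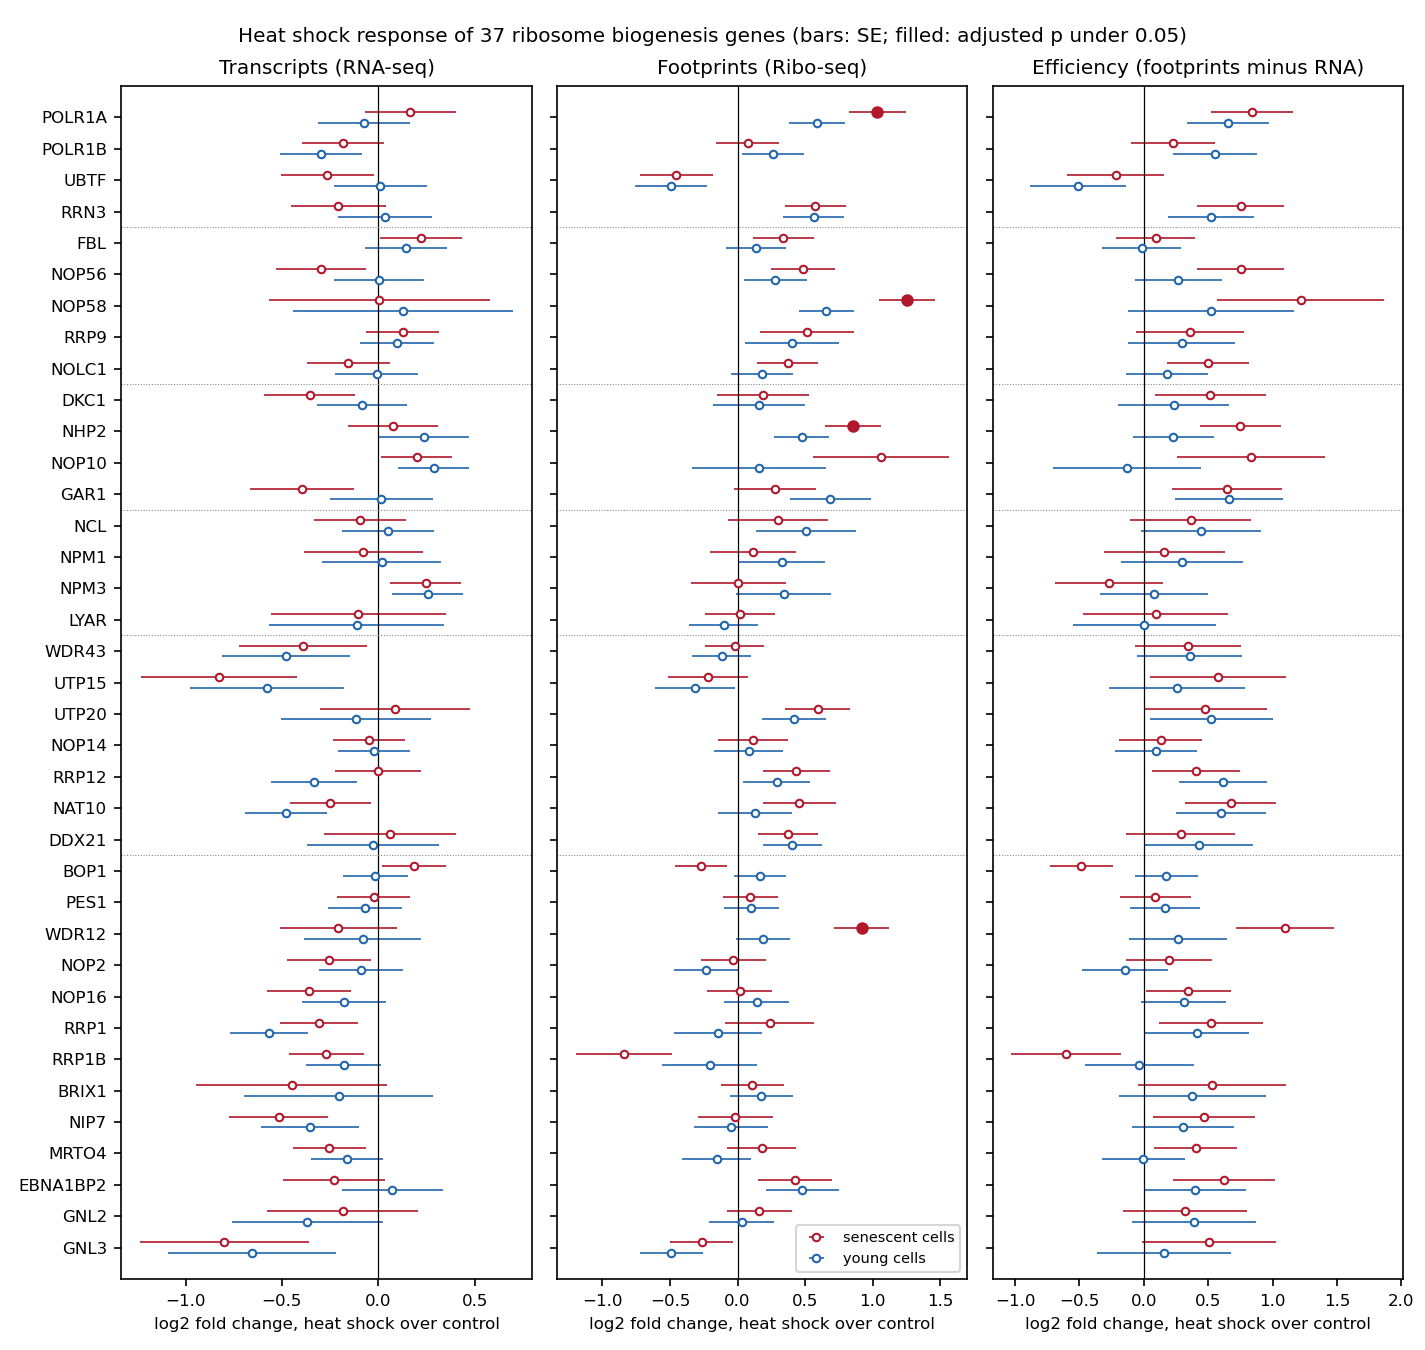
Log2 change with heat shock (x axes; bars, SE) of the 37 genes (rows, by role from RNA polymerase I at the top to large subunit assembly at the bottom) in senescent cells (red) and young cells (blue), for RNA, footprints and efficiency. The 4 filled points, all in senescent footprints, are POLR1A, NOP58, NHP2 and WDR12.

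Among the factors of RNA polymerase I transcription, POLR1A, the largest subunit of the enzyme, was the one that rose. POLR1A footprints stood at 125 and 146 CPM in senescent heat-shocked cells, against 72.0 and 60.6 CPM in senescent control cells, and 105 and 84.0 CPM in young heat-shocked cells, against 63.3 and 62.5 CPM in young control cells. Heat-shocked libraries lay above the controls of the same age without overlap, and the log2 change was 1.03 ± 0.21 in senescent cells (SE, n = 2 against 2; adjusted p = 0.0241, edgeR's quasi-likelihood test) and 0.59 ± 0.21 in young cells (adjusted p = 0.228). Its RNA stood at 49.7 and 48.6 CPM in senescent heat-shocked cells, against 35.7 and 52.0 CPM in senescent control cells, and 50.7 and 55.5 CPM in young heat-shocked cells, against 62.4 and 49.4 CPM in young control cells. The RNA groups overlapped within each age, with log2 changes of 0.17 ± 0.24 and -0.07 ± 0.24. RRN3, the initiation factor that carries growth signals to the enzyme, had footprint changes of similar size in senescent (0.57 ± 0.23; adjusted p = 0.138) and young cells (0.56 ± 0.23; adjusted p = 0.274) that did not pass the test. The second-largest subunit, POLR1B, changed by 0.07 ± 0.23 and 0.26 ± 0.23 in footprints. UBTF, the architectural factor that binds ribosomal DNA, pointed the other way: its footprints stood at 34.1 and 44.4 CPM in senescent heat-shocked cells, against 40.8 and 66.2 CPM in senescent control cells, and 53.3 and 44.6 CPM in young heat-shocked cells, against 65.7 and 71.9 CPM in young control cells. The young groups did not overlap and the senescent ones did, since senescent heat shock replicate 2 lay above senescent control replicate 1; the changes were -0.45 ± 0.27 (adjusted p = 0.304) and -0.49 ± 0.27 (adjusted p = 0.412).

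Box C/D snoRNPs methylate ribosomal RNA, guided by small nucleolar RNAs. Their core proteins NOP56 and NOP58 hold the guide and fibrillarin (FBL) is the methyltransferase. NOP58 had the largest footprint rise of the group: 128 and 162 CPM in senescent heat-shocked cells, against 63.9 and 57.6 CPM in senescent control cells, and 105 and 90.0 CPM in young heat-shocked cells, against 60.5 and 62.7 CPM in young control cells. Both heat-shocked groups lay above their controls, and the control groups of the 2 ages overlapped. The log2 change was 1.25 ± 0.21 in senescent cells (adjusted p = 0.0125) and 0.66 ± 0.20 in young cells (adjusted p = 0.181). Its RNA followed the replicate number rather than the treatment, with 61.3 and 32.4 CPM in senescent heat-shocked cells, against 65.7 and 27.8 CPM in senescent control cells, and 89.3 and 38.6 CPM in young heat-shocked cells, against 79.1 and 38.0 CPM in young control cells. In every group replicate 1 was the higher, and the RNA change with heat was 0.00 ± 0.57 in senescent cells and 0.13 ± 0.57 in young cells, the largest SE of the group. NOP56 footprints reached 174 and 204 CPM in senescent heat-shocked cells, against 130.3 and 139.5 CPM in senescent control cells, and 138 and 89.2 CPM in young heat-shocked cells, against 90.9 and 96.0 CPM in young control cells. The senescent groups did not overlap, with heat higher; the young groups did. The change was 0.48 ± 0.23 in senescent cells (adjusted p = 0.211) and 0.28 ± 0.23 in young cells. Its RNA stood at 111 and 142 CPM in senescent heat-shocked cells, against 164 and 147 CPM in senescent control cells, and 151 and 117 CPM in young heat-shocked cells, against 153 and 115 CPM in young control cells, lower with heat without overlap in senescent cells (-0.30 ± 0.23) and overlapping in young cells (0.00 ± 0.23). FBL changed by 0.34 ± 0.22 and 0.14 ± 0.22 in footprints and by 0.22 ± 0.21 and 0.14 ± 0.21 in RNA, and passed the test in none. Its RNA stood at 83.5 and 121 CPM in senescent heat-shocked cells, against 86.7 and 88.7 CPM in senescent control cells, and 106 and 112 CPM in young heat-shocked cells, against 97.3 and 101 CPM in young control cells, where senescent heat shock replicate 2 alone exceeded the other senescent libraries. FBL footprints stood at 129 and 140.3 CPM in senescent heat-shocked cells, against 120.1 and 92.4 CPM in senescent control cells, and 161 and 119 CPM in young heat-shocked cells, against 126 and 129.7 CPM in young control cells, apart in senescent and overlapping in young cells. The other members, RRP9, a protein of the snoRNP that starts small subunit processing, and NOLC1, a chaperone of snoRNPs, had senescent footprint changes of 0.51 ± 0.35 and 0.37 ± 0.23. All 5 genes were above 0 in senescent footprints, with heat higher and no overlap between the groups, as were 26.8% of all genes tested, and 1 of the 5 passed the test.

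Box H/ACA snoRNPs convert uridine to pseudouridine, with dyskerin (DKC1) as the enzyme and NHP2, NOP10 and GAR1 as its partners. NHP2 footprints stood at 90.5 and 93.2 CPM in senescent heat-shocked cells, against 58.1 and 43.7 CPM in senescent control cells, and 87.0 and 84.8 CPM in young heat-shocked cells, against 61.7 and 61.8 CPM in young control cells. All 4 heat-shocked libraries were above all 4 controls. The log2 change was 0.85 ± 0.21 in senescent cells (adjusted p = 0.0399) and 0.48 ± 0.20 in young cells (adjusted p = 0.299), while its RNA changed by 0.07 ± 0.23 and 0.24 ± 0.23. NOP10 had a fitted footprint change as large in senescent cells, 1.06 ± 0.50, that did not pass the test (adjusted p = 0.201). Its libraries stood at 69.5 and 145 CPM in senescent heat-shocked cells, against 30.2 and 71.8 CPM in senescent control cells, and 45.8 and 100.0 CPM in young heat-shocked cells, against 66.2 and 64.4 CPM in young control cells. Replicate 2 was more than 2 times replicate 1 in 3 of the 4 groups, so that the groups overlapped at both ages. In RNA NOP10 stood at 99.0 and 110.0 CPM in senescent heat-shocked cells, against 95.2 and 87.0 CPM in senescent control cells, and 84.6 and 97.4 CPM in young heat-shocked cells, against 70.4 and 78.7 CPM in young control cells, and heat-shocked libraries lay above their controls at both ages (0.20 ± 0.18 and 0.29 ± 0.18; adjusted p = 0.876 and 0.767). GAR1 had the largest footprint change of the group in young cells, 0.69 ± 0.30 (adjusted p = 0.31), from values of 53.4 and 43.9 CPM in senescent heat-shocked cells, against 49.6 and 31.1 CPM in senescent control cells, and 82.7 and 50.4 CPM in young heat-shocked cells, against 41.8 and 40.8 CPM in young control cells. The young groups did not overlap and the senescent ones did. Without young heat shock replicate 1 the young change was 0.29, and without replicate 2 of that group it was 0.98. DKC1 footprints reached 101 and 80.7 CPM in senescent heat-shocked cells, against 94.9 and 64.4 CPM in senescent control cells, and 115 and 56.3 CPM in young heat-shocked cells, against 72.1 and 81.2 CPM in young control cells, with overlap at both ages and changes of 0.19 ± 0.34 and 0.16 ± 0.34. DKC1 RNA stood at 50.2 and 55.5 CPM in senescent heat-shocked cells, against 77.8 and 57.5 CPM in senescent control cells, and 76.8 and 64.4 CPM in young heat-shocked cells, against 85.1 and 64.6 CPM in young control cells; the senescent groups did not overlap, with heat lower (-0.36 ± 0.23), and the young ones did (-0.09 ± 0.23).

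**Figure D3:**
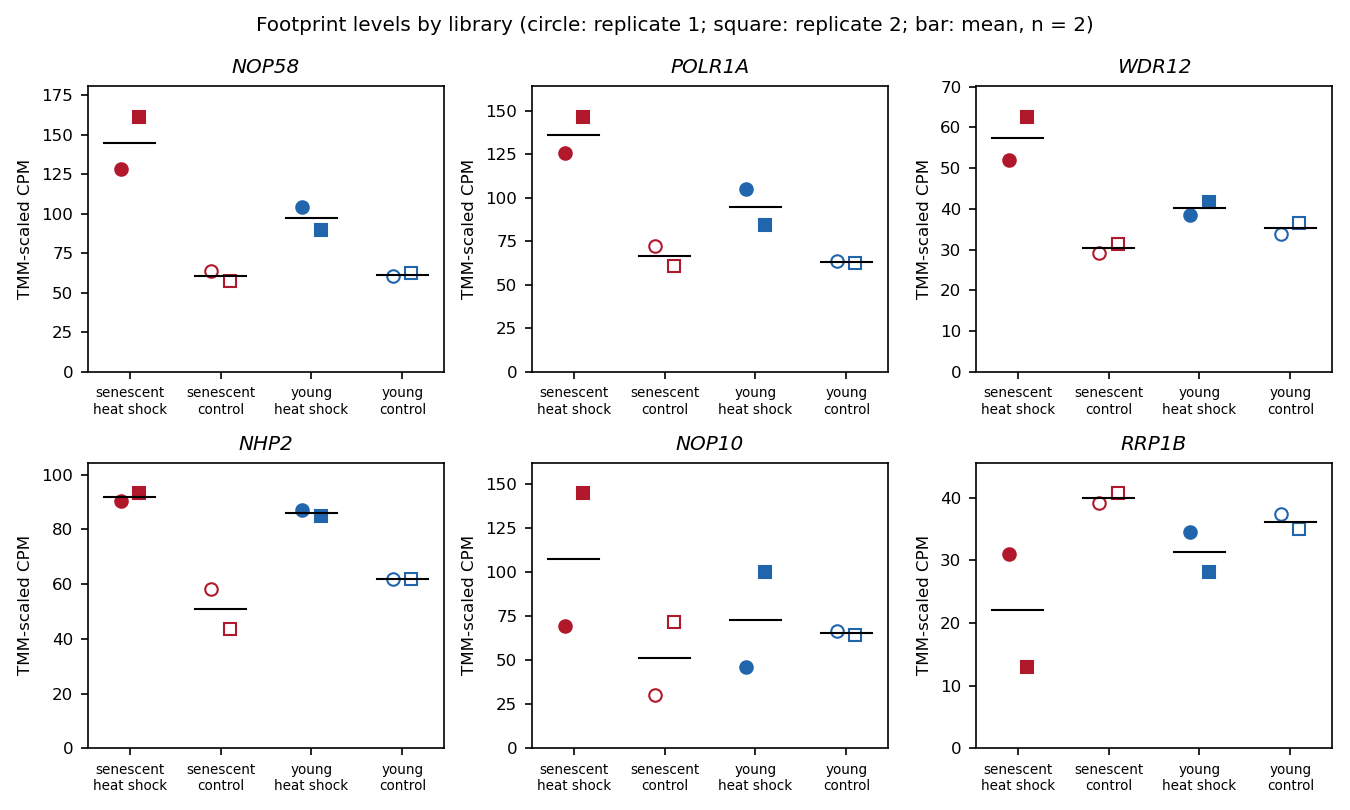
Footprint level (y axes, TMM-scaled CPM) of 6 genes in each library, senescent heat-shocked, senescent control, young heat-shocked and young control cells from left to right; bars are means of 2. NOP58, POLR1A, WDR12 and NHP2 lie higher in senescent heat-shocked than in senescent control cells without overlap, NOP10 splits by replicate number, and RRP1B is lowest in senescent heat shock replicate 2.

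None of the 4 nucleolar chaperones and phosphoproteins passed the test with heat in either assay. NPM1 footprints stood at 1506 and 1119.9 CPM in senescent heat-shocked cells, against 1449 and 981 CPM in senescent control cells, and 2012 and 1048 CPM in young heat-shocked cells, against 1224 and 1217 CPM in young control cells. NCL footprints stood at 1359 and 1157 CPM in senescent heat-shocked cells, against 1261 and 785 CPM in senescent control cells, and 1723 and 739 CPM in young heat-shocked cells, against 846 and 889 CPM in young control cells. For both, heat-shocked replicate 1 exceeded replicate 2 and the groups overlapped. The changes were 0.11 ± 0.32 and 0.33 ± 0.32 for NPM1 and 0.30 ± 0.37 and 0.50 ± 0.37 for NCL in senescent and young cells. In RNA NPM1 held 794 and 727 CPM in senescent heat-shocked cells, against 1031 and 574 CPM in senescent control cells, and 969 and 755 CPM in young heat-shocked cells, against 1019 and 684 CPM in young control cells. NCL held 615 and 643 CPM in senescent heat-shocked cells, against 794 and 549.5 CPM in senescent control cells, and 773 and 635 CPM in young heat-shocked cells, against 779 and 583 CPM in young control cells. Replicate 1 was the higher of each pair for NPM1 in all 4 groups, and for NCL in all but the senescent heat-shocked group. NPM3, a histone chaperone related to NPM1, had the highest RNA change of the group in senescent cells and the second highest in young cells, from values of 44.6 and 44.7 CPM in senescent heat-shocked cells, against 37.7 and 37.7 CPM in senescent control cells, and 38.3 and 35.6 CPM in young heat-shocked cells, against 31.0 and 30.9 CPM in young control cells. Heat-shocked libraries were above their controls at both ages, by 0.24 ± 0.18 and 0.26 ± 0.18, and neither passed the test (adjusted p = 0.841 and 0.821). Under scaling by library size alone the young change was -0.026. LYAR, a nucleolar zinc finger protein, changed by 0.02 ± 0.26 and -0.10 ± 0.26 in footprints.

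Of the 7 small subunit factors, which cut and fold the ribosomal RNA precursor around the small subunit, none passed the test in either assay. UTP15, a component of the complex that first binds the precursor, had the lowest RNA change of the group in senescent cells. Its RNA stood at 9.60 and 6.23 CPM in senescent heat-shocked cells, against 18.1 and 10.0 CPM in senescent control cells, and 13.5 and 8.60 CPM in young heat-shocked cells, against 19.9 and 13.1 CPM in young control cells. The senescent groups did not overlap, with heat lower, and the young groups overlapped. The log2 change was -0.83 ± 0.40 in senescent cells (adjusted p = 0.661), or -0.81 with the replicate block (adjusted p = 0.0251), and -0.58 ± 0.40 in young cells (adjusted p = 0.803; with the block 0.0516). With the trend over transcript GC content also taken out of each library, the blocked change in senescent cells was -0.63 and no longer passed (adjusted p = 0.0526). Its footprints changed by -0.22 ± 0.30 and -0.31 ± 0.30. UTP20, a large scaffold protein, had footprint changes of 0.59 ± 0.24 in senescent and 0.41 ± 0.24 in young cells (adjusted p = 0.144 and 0.434), with no overlap at either age: 103 and 73.0 CPM in senescent heat-shocked cells, against 66.8 and 49.8 CPM in senescent control cells, and 86.8 and 81.3 CPM in young heat-shocked cells, against 61.3 and 64.8 CPM in young control cells. The RNA helicase DDX21 and the cytidine acetyltransferase NAT10 had senescent footprint changes of 0.37 ± 0.22 and 0.46 ± 0.27, and the export factor RRP12 0.43 ± 0.25. WDR43 (-0.02 ± 0.22) and NOP14 (0.11 ± 0.26) were near 0.

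The 13 large subunit factors spread most widely, from RRP1B, the lowest footprint change in senescent cells, to WDR12. WDR12, PES1 and BOP1 form a complex needed for processing of the large subunit RNA, and of these WDR12 was the one whose footprints passed the test. WDR12 stood at 52.0 and 62.6 CPM in senescent heat-shocked cells, against 29.1 and 31.4 CPM in senescent control cells, and 38.5 and 41.7 CPM in young heat-shocked cells, against 33.8 and 36.6 CPM in young control cells. Senescent heat-shocked libraries were above all others. The log2 change was 0.92 ± 0.20 in senescent cells (adjusted p = 0.0299) and 0.19 ± 0.20 in young cells (adjusted p = 0.701), and in RNA -0.21 ± 0.30 and -0.08 ± 0.30. PES1 held 132 and 144 CPM in senescent heat-shocked cells, against 139 and 119 CPM in senescent control cells, and 126 and 96.6 CPM in young heat-shocked cells, against 104 and 103 CPM in young control cells, with overlapping groups and changes of 0.09 ± 0.20 and 0.10 ± 0.20. In RNA PES1 held 109 and 137 CPM in senescent heat-shocked cells, against 132 and 118 CPM in senescent control cells, and 104 and 106 CPM in young heat-shocked cells, against 115 and 105 CPM in young control cells, where the groups also overlapped. BOP1 footprints stood at 66.7 and 64.8 CPM in senescent heat-shocked cells, against 80.2 and 78.5 CPM in senescent control cells, and 82.5 and 67.8 CPM in young heat-shocked cells, against 64.4 and 69.4 CPM in young control cells. With heat they lay lower in senescent cells without overlap (log2 change -0.27 ± 0.19; adjusted p = 0.387), and overlapped in young cells (0.17 ± 0.19). RRP1B, a paralogue of RRP1 that also regulates transcription, stood at 31.0 and 13.0 CPM in senescent heat-shocked cells, against 39.1 and 40.7 CPM in senescent control cells, and 34.6 and 28.1 CPM in young heat-shocked cells, against 37.4 and 35.0 CPM in young control cells. Its change in senescent cells, -0.84 ± 0.36 (adjusted p = 0.159), did not pass the test and rests on senescent heat shock replicate 2, whose 13.0 CPM come from 61 counts; fitted without replicate 1 of that group it was -1.66 (adjusted p = 0.00809), and without replicate 2 it was -0.40.

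GNL3 (nucleostemin), a GTP-binding nucleolar protein known from stem and proliferating cells, had the lowest RNA change of the group in young cells. Its RNA stood at 60.0 and 46.2 CPM in senescent heat-shocked cells, against 127 and 57.8 CPM in senescent control cells, and 75.9 and 46.9 CPM in young heat-shocked cells, against 125 and 68.4 CPM in young control cells. Within each replicate number the heat-shocked library was below its control at both ages, but replicate 1 was so much higher than replicate 2 that the groups overlapped. The change was -0.80 ± 0.44 in senescent cells (adjusted p = 0.737; with the block 0.0535) and -0.66 ± 0.44 in young cells (adjusted p = 0.782; with the block 0.0607). Leaving out 1 library, the senescent change ran from -1.26 (without senescent control replicate 2) to -0.12 (without replicate 1 of that group), and the young change from -1.05 (without young heat shock replicate 1) to -0.16 (without young control replicate 1). Its footprints stood at 99.3 and 110.2 CPM in senescent heat-shocked cells, against 144 and 108 CPM in senescent control cells, and 88.7 and 63.5 CPM in young heat-shocked cells, against 105 and 108 CPM in young control cells, lower with heat in young cells without overlap (-0.49 ± 0.23; adjusted p = 0.35) and overlapping in senescent cells (-0.27 ± 0.23). RRP1 was the gene at an unadjusted p under 0.05 in young RNA, with 24.9 and 29.8 CPM in senescent heat-shocked cells, against 33.6 and 34.0 CPM in senescent control cells, and 22.2 and 19.7 CPM in young heat-shocked cells, against 31.7 and 30.4 CPM in young control cells. With heat it lay lower at both ages without overlap; the log2 change was -0.31 ± 0.20 in senescent cells (adjusted p = 0.796) and -0.57 ± 0.20 in young cells (adjusted p = 0.343). The remaining 7 genes, NOP2, NOP16, BRIX1, NIP7, MRTO4, EBNA1BP2 and GNL2, had senescent footprint changes between -0.03 ± 0.24 (NOP2, a methyltransferase of the large subunit RNA) and 0.42 ± 0.27 (EBNA1BP2).

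The 4 senescent footprint rises depended on which libraries were in the fit. Without either library of senescent control cells none of the 4 passed the test, and without either young control library, which sets part of the estimate of spread, NOP58 alone did (1.26; adjusted p = 0.0465 and 0.0460). With the young control footprints counted as 1 sample, it was also NOP58 alone (1.26; adjusted p = 0.0459). Without senescent heat shock replicate 2, NOP58 alone passed (1.05; adjusted p = 0.0490). Scaling by library size alone left POLR1A (0.75; adjusted p = 0.0382) and NOP58 (0.97; adjusted p = 0.0172), with NHP2 at 0.58 and WDR12 at 0.63, neither past the threshold. DESeq2 called the same 4, among 1515 of all genes against 943 with edgeR.

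Whether the heat response itself differed between senescent and young cells was tested as a difference of log2 changes, senescent minus young. No gene of the group passed with edgeR or DESeq2 in RNA, footprints or efficiency. Of all genes tested, edgeR called 0, 0 and 0.00779%, and DESeq2 called 3, 10 and 2 genes. At an unadjusted p under 0.05 stood 0, 1 and 0 genes (background 0.903%, 4.91% and 2.54%). The 1 was WDR12, with a difference in footprints of 0.73 ± 0.29 (95% interval 0.09 to 1.38; adjusted p = 0.834). NOP58 differed by 0.60 ± 0.29, NOP10 by 0.90 ± 0.70, RRP1B by -0.64 ± 0.50 and BOP1 by -0.44 ± 0.27. So the 4 footprint rises passed the test in senescent cells in the main edgeR fit, though not under every alternative above. They are not shown to differ from the changes in young cells. In RNA the differences of largest size were 0.33 ± 0.31 for RRP12, 0.26 ± 0.29 for RRP1, -0.41 ± 0.38 for GAR1 and -0.30 ± 0.37 for EBNA1BP2, a large subunit factor first known as a partner of a viral protein. EBNA1BP2 RNA stood at 103 and 104 CPM in senescent heat-shocked cells, against 145 and 98.0 CPM in senescent control cells, and 157 and 119 CPM in young heat-shocked cells, against 153 and 109.5 CPM in young control cells, and its groups overlapped at both ages.

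Senescent and young cells were also compared directly. In control cells none of the 37 genes passed the test in RNA or in footprints with edgeR or DESeq2. Of all genes, edgeR called 0.0379% and 0%, and DESeq2 called 144 and 120 genes. With edgeR 1 gene in each was at an unadjusted p under 0.05 (background 7.2% and 7.84%): BOP1 in RNA and RRP12 in footprints. Under heat shock none passed in RNA (background 0%) or in footprints (background 0.00886%), with 2 and 5 at an unadjusted p under 0.05 (background 11.5% and 13%). With the replicate block in RNA, 4 genes passed under heat shock (background 13.7% of genes called), BOP1 and RRP12 higher and BRIX1 and GAR1 lower in senescent cells, and none in control cells (background 3.72%). The RNA medians were -0.09 in control cells and -0.16 under heat shock, beside 0.00 and -0.04 over all genes, and the footprint medians 0.08 and 0.10, beside -0.01 and 0.00. These comparisons share libraries with those of heat shock.

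BOP1 RNA stood at 90.3 and 91.2 CPM in senescent heat-shocked cells, against 59.6 and 59.5 CPM in young heat-shocked cells, and 78.4 and 81.4 CPM in senescent control cells, against 60.4 and 60.0 CPM in young control cells. All senescent libraries lay above all young ones, by 0.61 ± 0.17 under heat shock (adjusted p = 0.277; with the block 0.61, adjusted p = 0.0176) and 0.41 ± 0.17 in control cells (adjusted p = 0.663; with the block 0.0808). With the trend over transcript GC content taken out of each library these differences were 0.16 and 0.10, and with the block as well 0.18 (adjusted p = 0.383) and 0.11. In footprints BOP1 differed by -0.19 ± 0.19 and 0.25 ± 0.19. RRP12 RNA stood at 44.1 and 42.9 CPM in senescent heat-shocked cells, against 31.4 and 27.6 CPM in young heat-shocked cells, and 47.3 and 39.8 CPM in senescent control cells, against 42.4 and 31.8 CPM in young control cells. The groups did not overlap under heat shock (0.56 ± 0.22; with the block 0.57, adjusted p = 0.0346) and overlapped in control cells (0.23 ± 0.22). Its footprints were higher in all senescent libraries but 1 than in all young ones: 66.8 and 68.2 CPM in senescent heat-shocked cells, against 44.4 and 35.9 CPM in young heat-shocked cells, and 60.8 and 39.2 CPM in senescent control cells, against 32.8 and 32.8 CPM in young control cells. The differences were 0.75 ± 0.25 (adjusted p = 0.306) and 0.60 ± 0.25 (adjusted p = 0.595). NOP56 footprints, given above, were higher in senescent cells without overlap in both conditions, by 0.73 ± 0.24 under heat shock (adjusted p = 0.3) and 0.53 ± 0.23 in control cells (adjusted p = 0.634).

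BRIX1, an early assembly factor of the large subunit, and GAR1 stood lower in senescent RNA. BRIX1 held 26.6 and 16.4 CPM in senescent heat-shocked cells, against 48.4 and 23.9 CPM in young heat-shocked cells, and 39.6 and 19.2 CPM in senescent control cells, against 54.6 and 28.9 CPM in young control cells. Within each replicate number the senescent library was the lower in both conditions, and the groups overlapped. The difference was -0.75 ± 0.49 under heat shock (adjusted p = 0.56; with the block -0.70, adjusted p = 0.0211) and -0.51 ± 0.49 in control cells. Without the block, the difference under heat shock was -1.19 when young heat shock replicate 2 was left out and -0.15 when replicate 1 of that group was. GAR1 held 17.9 and 15.3 CPM in senescent heat-shocked cells, against 26.8 and 22.1 CPM in young heat-shocked cells, and 26.3 and 17.4 CPM in senescent control cells, against 26.6 and 21.8 CPM in young control cells. Its groups did not overlap under heat shock (-0.56 ± 0.27; with the block -0.55, adjusted p = 0.0446) and overlapped in control cells (-0.14 ± 0.27). Once the dependence on transcript GC content had been taken out library by library, the blocked fit under heat shock called none of these 4. It called UBTF lower (-0.50, adjusted p = 0.0353), and the share of all genes it called is not given here. Without that step the blocked fit called 13.7% of all genes. UTP20 had the largest RNA difference below 0 in control cells, -0.65 ± 0.39 (adjusted p = 0.812; with the block 0.0647), from 44.5 and 27.7 CPM in senescent heat-shocked cells, against 55.0 and 43.7 CPM in young heat-shocked cells, and 42.7 and 25.3 CPM in senescent control cells, against 69.6 and 37.3 CPM in young control cells. Its groups overlapped in control cells and under heat shock.

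**Figure D4:**
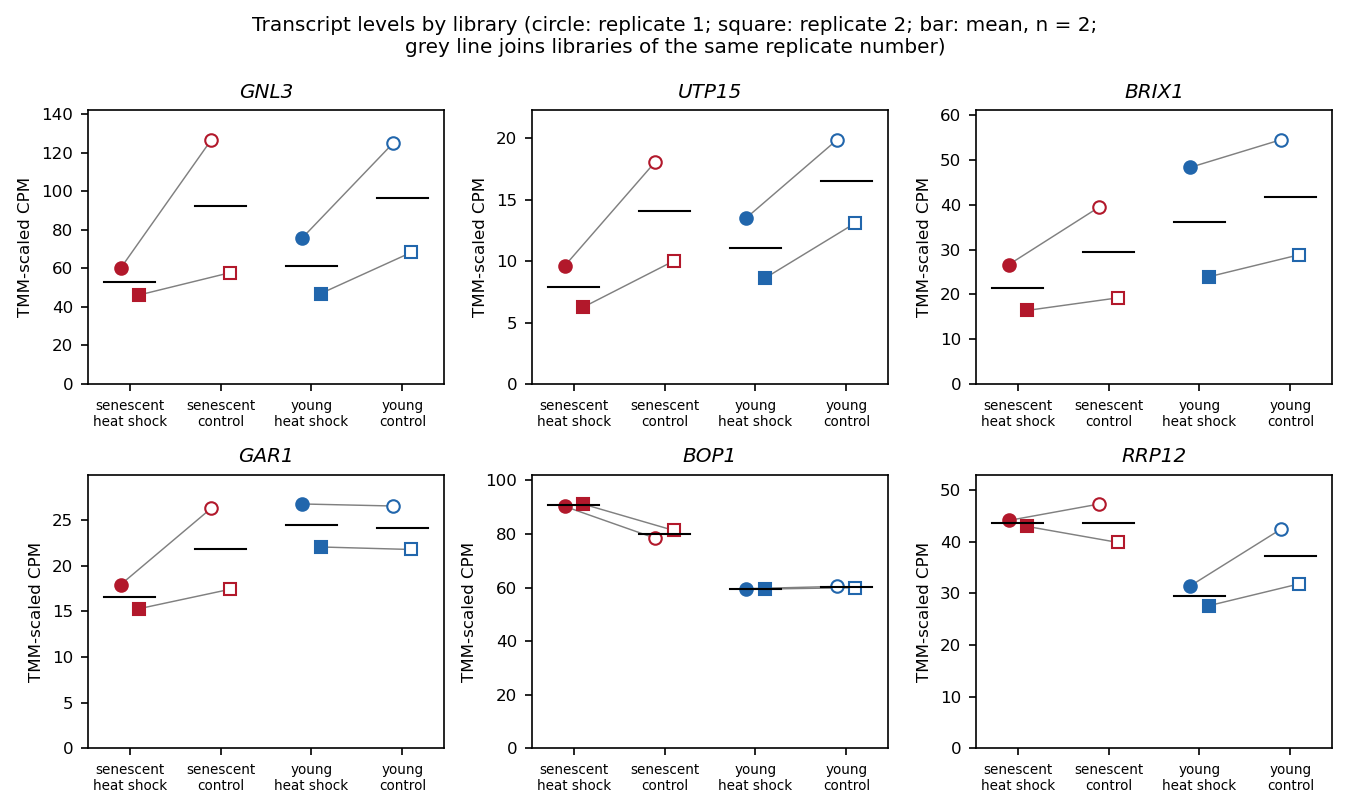
RNA level (y axes, TMM-scaled CPM) of 6 genes in each library, groups in the same order as in the plot of footprints by library; grey lines join heat shock and control of the same replicate number. GNL3, UTP15 and BRIX1 show replicate 1 (circles) above replicate 2 (squares) in every group, while the BOP1 replicates lie close together and its senescent libraries above the young ones.

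Translational efficiency was compared as the footprint change minus the RNA change. None of the 37 genes passed that test with edgeR or DESeq2: for heat in senescent cells (background 2.02% of genes called), for heat in young cells (background 0.0701%), for senescent against young under heat shock (background 0%) or in control cells (background 0.00779%). Those backgrounds are from edgeR, and DESeq2 called 665, 44, 21 and 5 of all genes in the same order. With edgeR, 5, 0, 3 and 0 genes stood at an unadjusted p under 0.05 (background 15.1%, 4.25%, 6.47% and 1.19%). With the replicate block 2 genes passed in senescent heat (background 8.29%), NOP58 (1.16; adjusted p = 0.0092) and WDR12 (1.05; adjusted p = 0.0424). With the GC trend also removed, NOP58 (1.00; adjusted p = 0.0409) and NHP2 (0.95; adjusted p = 0.0357) passed and WDR12 did not (0.88; adjusted p = 0.105). The share of all genes called in that fit is not given here. Without the block or the removal of the GC trend, the changes of NOP58 and WDR12 were 1.22 ± 0.65 (adjusted p = 0.396) and 1.10 ± 0.38 (adjusted p = 0.191). The group median with heat was 0.41 in senescent cells, with 33 of 37 genes above 0, and 0.29 in young cells, with 31 of 37, beside 0.05 and 0.00 over all genes; it stayed above 0 with library size scaling (0.39 and 0.29). In senescent cells 20 of the 37 had a footprint change above 0 with an RNA change below 0, and 1, BOP1, the reverse, beside 24.3% and 21.1% of the 11164 genes tested in both assays. Signs within an assay depend on the scaling, here TMM, and they were not counted under library size alone. BOP1 (-0.49 ± 0.25) and RRP1B (-0.60 ± 0.43) were the lowest in senescent cells and UBTF (-0.51 ± 0.37) in young cells, where GAR1 (0.66 ± 0.42) and POLR1A (0.65 ± 0.32) were the highest. For senescent against young cells after heat shock, NOP58 (0.99 ± 0.65) and NOP56 (0.79 ± 0.34) were the highest and BOP1 (-0.83 ± 0.25; -0.21 with the GC trend removed) the lowest.

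RNA levels of many of these genes differed with the replicate number. Averaged over the 4 groups, replicate 1 exceeded replicate 2 by 1.11 on the log2 scale for NOP58, 0.92 for BRIX1, 0.81 for LYAR and 0.77 for GNL3, while UBTF was -0.35 and NHP2 -0.29. In all 4 groups replicate 1 was higher for 15 of the 37 genes and lower for 3. The share over all genes tested was 25.7% and 30.01%. Across the 37 genes this difference ran against the GC content of the transcripts (38.7% to 65.2%), with a Spearman correlation of -0.80 in RNA, beside -0.68 over all genes, and 0.0043 in footprints, beside -0.24; these are descriptions across genes of the same libraries. NOP58, BRIX1, LYAR and GNL3 had transcript GC contents of 41.3% to 43.5%. Whether GC content causes the difference was not tested. NOP58, GNL3, NCL and NOP56 are also known as hosts of small nucleolar RNAs in their introns.

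**Figure D5:**
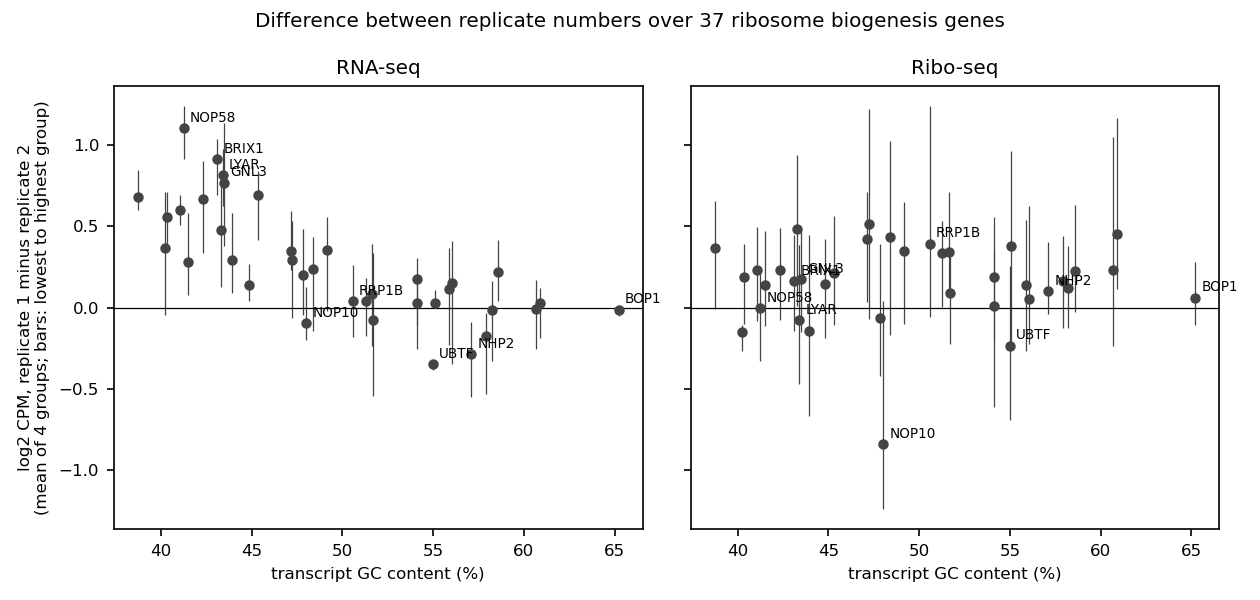
Log2 difference between replicate 1 and replicate 2 (y axis; points, mean of 4 groups; bars, lowest to highest group) against transcript GC content (x axis, percent) for the 37 genes. In RNA-seq the genes low in GC, NOP58 (41.3%) among them, lie above 0 and UBTF and NHP2 below, and in Ribo-seq no such slope is seen.

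Other genes of the pathway were counted from lists of factors outside the group. In senescent footprints 3.12% of all genes tested rose with heat and 5.24% fell, the shares to set beside each list. Of 46 other small subunit factors 4 rose there and none fell. They were HEATR1 (1.19 ± 0.21; adjusted p = 0.0154), PDCD11 (1.09 ± 0.26; adjusted p = 0.0387), RIOK2 (0.74 ± 0.19; adjusted p = 0.0461) and SNU13 (0.68 ± 0.17; adjusted p = 0.0431). HEATR1 and PDCD11 are scaffold proteins of the small subunit processome, RIOK2 is an ATPase of late small subunit maturation, and SNU13 binds the box C/D guide RNA beside NOP56 and NOP58. Of 45 other large subunit factors 2 fell and none rose: PPAN (-1.19 ± 0.30; adjusted p = 0.0461), whose counts are uncertain because a read-through gene with its neighbour is listed beside it, and the SUMO protease SENP3 (-1.06 ± 0.27; adjusted p = 0.0474). None of 12 other RNA polymerase I factors and none of 12 nuclear exosome subunits passed there, with 4 and 6 at an unadjusted p under 0.05 (28.7% of all genes). The medians of the small subunit, large subunit, RNA polymerase I and exosome lists were 0.22, 0.31, 0.29 and 0.63. In young footprints none of the listed genes passed, with 7, 6, 2 and 2 at an unadjusted p under 0.05 in the same order of lists (16% of all genes). In RNA none passed with heat at either age. With the block, 6, 3, 1 and 1 RNAs of those lists fell in senescent cells and 7, 3, 1 and 2 in young cells, and none rose. Over all genes tested, 3.62% fell and 2.66% rose in that fit in senescent cells, and 5.13% fell and 3.64% rose in young cells. In senescent cells the footprints of the collagen genes COL1A1 (-3.83 ± 0.24), COL1A2 (-2.03 ± 0.21) and COL3A1 (-1.76 ± 0.17), which mark fibroblasts, fell with heat (edgeR's quasi-likelihood test). COL1A1 footprints also fell with heat in young cells (-2.08 ± 0.22, adjusted p = 0.00291 by the same test). The part of these collagen genes in the scaling of the group was not tested.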

How the data were processed

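Estimated counts per gene (whole numbers in the files) and TPM were deposited by the authors for 8 RNA-seq and 8 Ribo-seq libraries. STAR, RSEM, Bowtie2 and the build hg19 are named, per the submitters' processing notes. Not given in the sources used here are their roles and versions, the annotation, and any trimming or depletion of ribosomal RNA reads. No molecular identifiers are named, so depth speaks to counting error only.

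Counts were scaled with TMM and tested in R 4.3.3 with edgeR 4.0.16 (quasi-likelihood test on 4 group means per assay, filterByExpr, Benjamini-Hochberg adjustment over all genes tested, threshold 0.05). That left 13177 genes in RNA and 11288 in footprints, with 4 residual degrees of freedom. Efficiency was fitted over all 16 libraries and 12831 genes, scaled within assay, with 8 residual degrees of freedom. Standard errors are the log2 change divided by the square root of F. CPM are TMM-scaled; TPM are the deposited values. The procedure was tested on simulated data. Figures used Python 3.11.15 and matplotlib 3.10.9.

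Alternatives were DESeq2 1.42.0, its size factors, library size alone, no filter on low counts, a replicate block, each library left out, and removal of trends with GC content of GENCODE transcripts. Deviations from group means correlated between same-numbered RNA libraries at 0.481 to 0.658 over 6 pairs of groups, so blocked RNA values are given where they change a call; the labels do not say what the numbers stand for. In footprints it was 0.245 to 0.329 for the 3 pairs without young control cells and -0.0380 to -0.0281 for the 3 pairs with them, so not every pair exceeded 0.1 and the numbers were not taken to pair the samples. Promoter windows came from a RefSeq table of build GRCh38.p14, and no coordinates were taken from the hg19 files.

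The 37 genes, the lists and the rules were chosen with earlier results of these data known. Named with values by library are genes that passed the test, the 2 highest and 2 lowest changes of each comparison among genes averaging 10 CPM or more in a group, and FBL, NOP56, DKC1, NCL, NPM1, POLR1A and PES1; efficiencies, and the rest of the genes, are given by fold change or counts, and other lists by counts and up to 3 genes that passed, with a further one named where 4 did.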

Additional observations from a re-analysis of the deposited data

How the results depend on the processing

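With 2 libraries a group, small changes could not be resolved, and in the simulated data most 2-fold changes were missed. In senescent footprints the 95% interval left out a 2-fold change in either direction for 23 of the 37 genes, and for efficiency for 5. The following 4 alternatives were chosen after seeing the data: removal of the GC trend, the same with the replicate block, young control footprints counted as 1 sample, and genes that passed the filter in each assay. Of the counts of genes passing the test, 113 kept within 1.5 times under alternatives other than leaving out a library, and 7 did not. All 15 counts of the main fit except that of heat in senescent footprints were 0, so most of the 113 are counts that stayed at 0. The count of 4 in senescent footprints was 2 with library size alone and 1 with young control footprints counted as 1 sample, and 0 to 5 with a library left out. With a library left out the count was 0 to 1 for senescent against young footprints under heat shock, where RRP1B passed without senescent heat shock replicate 1, and 0 to 1 for efficiency with heat in senescent cells. The cause was not tested.

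With the replicate block the count of 0 became 1 in RNA with heat in senescent cells, 4 in RNA for senescent against young cells after heat shock, and 2 for efficiency with heat in senescent cells. With the block and the GC trend removed together these counts were 0 (UTP15 was not called), 1 (UBTF) and 2 (NHP2 and NOP58, without WDR12). The shares of all genes called in those fits are not given here. In footprints, where not every pair of groups had a correlation above 0.1, the block gave 5 genes with heat in senescent cells, adding NOP10 (1.09; adjusted p = 0.0344), and changed no other count. Of all 11288 genes tested in footprints, the blocked fit for heat in senescent cells called 14.8%, with 5.98% higher and 8.79% lower. The labels do not tie RNA to footprint numbers.

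Signs reversed for changes that did not pass the test. With library size alone NPM3 RNA with heat in young cells was -0.026 and FBL RNA with heat in senescent cells -0.021. BOP1 efficiency with heat in senescent cells was 0.16 with the GC trend removed and 0.14 with the block as well. With a library left out, FBL RNA with heat in senescent cells ran over -0.085 to 0.45, EBNA1BP2 RNA in the difference of responses over -0.56 to 0.0064, and BRIX1 RNA between senescent and young control cells over -1.12 to 0.026. NOP10 footprints between senescent and young control cells ran over -1.12 to 0.13, NOP2 efficiency with heat in young cells over -0.34 to 0.067, and NPM3 efficiency for senescent against young cells after heat shock over -0.65 to 0.11. The group's efficiency median with heat ran over 0.19 to 0.66 in senescent and 0.013 to 0.54 in young cells.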
